A study of Mus musculus with 7 samples.

Results

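The genes described here are 10 regulators that write, maintain or remove DNA methylation or act in Polycomb repression: Dnmt1, Dnmt3a, Dnmt3b, Uhrf1, Tet1, Tet2, Tet3, Ezh1, Ezh2 and Asxl1. They are a list of names, with no threshold on a measured value, among 23930 genes in the count tables. All 10 were present, and all 10 passed the filter on low counts, as did 11429 genes in total. Each gene was measured by a single short amplicon in 7 targeted RNA-seq libraries of sorted mouse bone marrow cells. pMT-10 is a mouse strain that overexpresses interleukin-10 (IL-10), from a transgene that zinc switches on through a metallothionein promoter, and C57BL/6 (BL/6) mice were the controls. All mice, controls included, drank zinc-treated water over 15 days. The BL/6 controls gave 2 libraries of common myeloid progenitors (CMPs). The pMT-10 mice gave 2 libraries of CMPs, 2 of CD150+CD48+ cells within the LSK gate (Lineage- SCA-1+ c-KIT+, which holds stem and multipotent cells) and 1 of haematopoietic stem cells (HSC). Neither age nor sex of the mice is in the labels. Nothing says that the libraries of a group are separate animals: each p-value reflects the spread between libraries, which may be technical.

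DNA methylation at CpG sites is laid down on new sites by Dnmt3a and Dnmt3b and copied after replication by Dnmt1, which Uhrf1 brings to hemimethylated DNA. The TET enzymes oxidise methylcytosine, the first step of its removal. Polycomb repressive complex 2 (PRC2) methylates histone H3 at lysine 27 through Ezh2 or its paralogue Ezh1, and Asxl1 is the partner of the deubiquitinase Bap1, which removes the H2A mark placed by Polycomb repressive complex 1 (PRC1). In the blood system, DNMT3A, TET2 and ASXL1 are the genes most often mutated in clonal haematopoiesis, and Ezh2 prevails in dividing progenitors while Ezh1 persists in resting cells.

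Total counts ran from 7372430 (HSC) to 13854314 per library. A sequencing chip dated 2018 carried all pMT-10 CMP and CD150+CD48+ libraries, and one dated 2019 carried those of BL/6 CMPs and HSC. Strain and chip therefore cannot be told apart in CMPs. The Y-linked gene Uty had 0 and 1 counts in the BL/6 libraries and 47 to 552 in the pMT-10 libraries. Sex and strain thus cannot be told apart in any comparison with BL/6 CMPs. The Uty level also differed among the pMT-10 libraries, where the part of sex was not tested. The comparison of CD150+CD48+ cells with pMT-10 CMPs and that of HSC with BL/6 CMPs each lie within a chip, the latter across both strains and cell populations. Il10 itself had 0 to 2 counts in every library, pMT-10 and BL/6 alike, so its amplicon did not check the strain labels in these cells. The surface markers Ly6a and Cd48 followed the sort labels. Ly6a, which encodes SCA-1, was at 249 to 331 CPM (counts relative to library totals after TMM scaling) in the CD150+CD48+ and HSC libraries. In CMPs it was at 0.0923 to 28.0 CPM. Cd48 was at 6.49 CPM in HSC against 40.5 and 63.6 CPM in CD150+CD48+ cells. Kit, which encodes c-KIT, was at 303 and 274 CPM in BL/6 CMPs and lower in every pMT-10 library. Those were at 95.3 and 140 CPM in CMPs, 81.2 and 118 CPM in CD150+CD48+ cells and 158 CPM in HSC. The pMT-10 CMP libraries differed from each other more than the other pairs did (SD of the log2 difference across genes 0.823, against 0.385 for BL/6 CMPs and 0.474 for CD150+CD48+ cells). Granulocyte markers summed to 554 and 857 CPM in pMT-10 CMPs, to 218 and 257 CPM in BL/6 CMPs, to 55.8 and 56.1 CPM in CD150+CD48+ cells and 138 CPM in HSC. Prtn3 and Ctsg made up most of each sum. Of 13 tested markers, 7 were called higher and 0 lower in pMT-10 than in BL/6 CMPs (14.3% and 13.7% of all tested genes). Only those 7 had a positive log2 difference. Mpo was at 8.39 and 6.03 CPM in pMT-10 CMPs against 12.1 and 16.8 CPM in BL/6 CMPs. Summed erythroid markers, mostly Car1 and Car2, were at 2400 CPM in HSC and at 9490 to 15400 CPM elsewhere. Megakaryocyte markers were at 2570 CPM in HSC and 347 to 916 CPM elsewhere. Basophil and mast cell markers summed to 277 and 467 CPM in pMT-10 CMPs, to 61.0 and 64.9 CPM in BL/6 CMPs, to 54.2 and 44.5 CPM in CD150+CD48+ cells and to 6.49 CPM in HSC, and 4 of 5 tested were called higher in pMT-10 than in BL/6 CMPs. The part of this differing makeup in the values below was not tested. In sorted bulk samples, fewer cells of a type and less RNA per cell cannot be told apart.

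The 10 regulators were expressed in every library and moved little. The most variable was Tet2, which spanned 2.99-fold between its lowest and highest library, and the least variable was Asxl1, at 1.5-fold. In pMT-10 against BL/6 CMPs, 0 of 10 passed an adjusted p of 0.05 (edgeR quasi-likelihood test, Benjamini-Hochberg over all 11429 genes), where 28.0% of all tested genes did. At an unadjusted p under 0.05 there were 2 (Dnmt1 and Tet2). Tet2, with the larger p of these, stood at rank 4607 by p among the 11429 genes. Unadjusted p-values under 0.05 were therefore common among all tested genes. DESeq2 and limma-voom also called 0 of the regulators. With no filter on low counts both were called (Dnmt1 at an adjusted p of 0.0213 and Tet2 at 0.0251), as were 3749 of 17973 genes. Log2 fold changes ran from -0.59 (Dnmt1) to 0.72 (Tet2), with a median of 0.18 against 0.01 for all tested genes. The median size of the change, whatever its sign, was 0.33 for the regulators and 0.57 for all tested genes. Libraries of the CMP groups did not overlap for 5 of 10 regulators, against 66.9% of all tested genes.

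In each of the other comparisons a single regulator was called, as higher in the group named first. Dnmt1 was called in CD150+CD48+ cells against pMT-10 CMPs, where 11.8% of all tested genes were called. Tet1 was called in HSC against CD150+CD48+ cells (background 18.8%), and Dnmt3b in HSC against pMT-10 CMPs (background 25.5%) and in HSC against BL/6 CMPs (background 20.3%). Dnmt3a was called in CD150+CD48+ cells against BL/6 CMPs (background 16.6%). Thus 1 of 10 was called in each of these 5, a share no higher than the background. Libraries of the groups compared did not overlap for 2 of 10 regulators in CD150+CD48+ cells against pMT-10 CMPs (55.7% of all tested genes), 9 and 7 in HSC against CD150+CD48+ cells (87.0%) and pMT-10 CMPs (79.3%), and 8 each in HSC (90.7%) and CD150+CD48+ cells (71.7%) against BL/6 CMPs. These shares lay on either side of the background. The 6 comparisons share libraries and are not independent of each other, and the HSC group is a single library that is assumed to vary like the others.

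**Figure D1:**
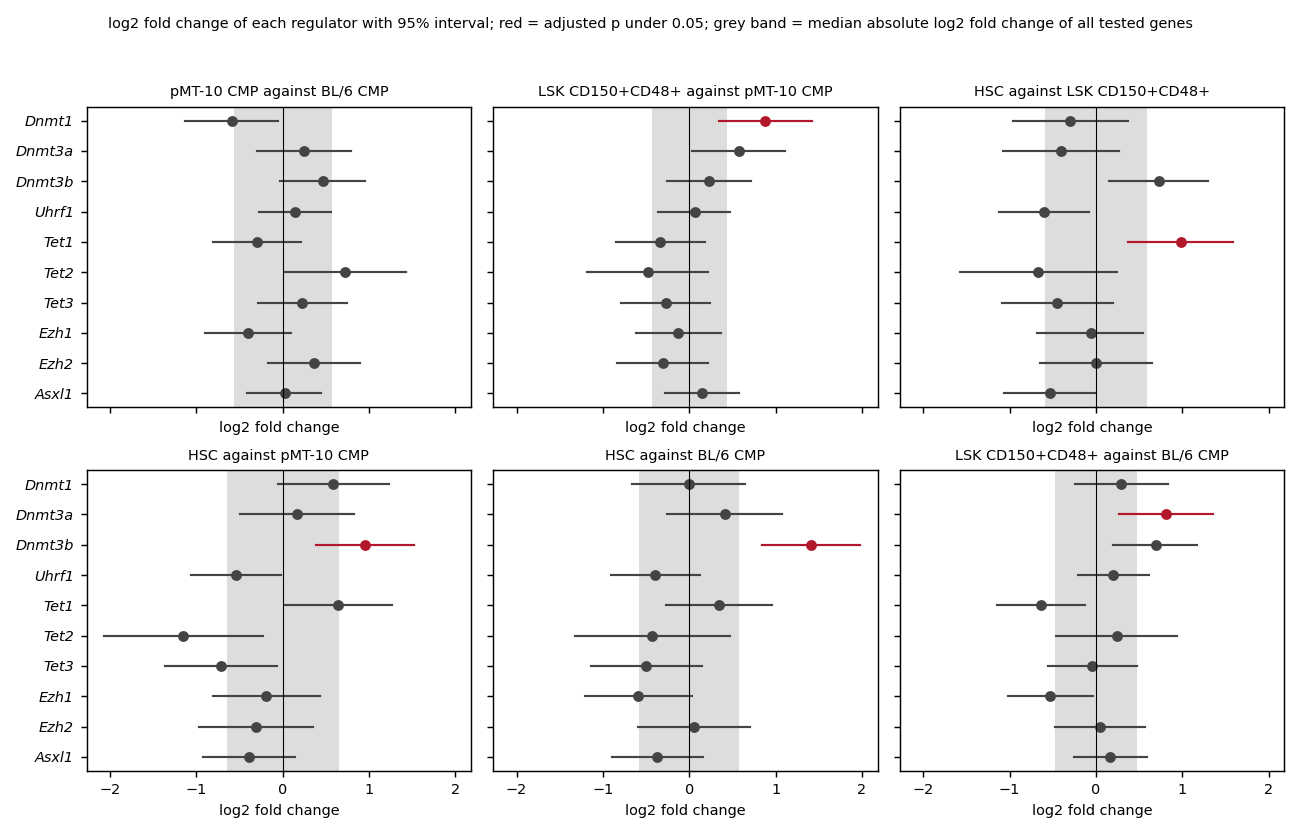
Log2 fold change (x axis) of each of the 10 regulators (y axis) in the 6 comparisons, with points for the edgeR estimate and lines for its 95% interval. Red marks an adjusted p under 0.05, and the grey band spans the median absolute log2 fold change of all tested genes. No point is red in pMT-10 against BL/6 CMPs, and 1 point is red in each other panel.

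Dnmt3b, a de novo methyltransferase (chromosome 2, 153649450 to 153687730, GRCm38), showed the largest difference among the regulators. Its levels were 41.8 and 35.7 CPM in BL/6 CMPs, 50.1 and 56.6 CPM in pMT-10 CMPs, 53.3 and 71.2 CPM in CD150+CD48+ cells and 103 CPM in HSC (779 counts, exact 95% Poisson interval 96.0 to 111 CPM, counting error only). The HSC library was above all others, and both BL/6 libraries were below all 5 pMT-10 libraries. The share of all tested genes with both BL/6 libraries below was 14.2%, and the share with the HSC library above the other 6 was 25.0%. Against BL/6 CMPs on the same chip, Dnmt3b was higher in HSC by 1.41 ± 0.25 on the log2 scale (SE, adjusted p = 0.00502), a 2.66-fold difference. Against pMT-10 CMPs it was higher by 0.95 ± 0.25 (adjusted p = 0.0261), and against CD150+CD48+ cells the difference of 0.73 ± 0.26 missed the threshold (adjusted p = 0.0764). The HSC library thus stood highest in each comparison, with the widest gap to BL/6 CMPs. The comparison with BL/6 CMPs ran across strains, from which sex cannot be told apart. Those with pMT-10 CMPs and CD150+CD48+ cells ran across chips. Cell population therefore cannot be told apart from strain or chip in any of them. The call against BL/6 CMPs was lost without BL/6 replicate 2 (1.25, adjusted p = 0.0705) and the call against pMT-10 CMPs without BL/6 replicate 1 (adjusted p = 0.0692) or replicate 2 (0.0731) and in a fit of only the groups compared (0.89, adjusted p = 0.166). Between CD150+CD48+ cells and BL/6 CMPs the difference was 0.69 ± 0.22 (adjusted p = 0.0588), and between the CMPs 0.46 ± 0.22 (adjusted p = 0.139). The sequence before the Dnmt3b start is shown because it is the regulator with the widest difference, with its 21 CpG sites in capitals. It covers chr2:153649199-153649449 on the plus strand (RefSeq table, GRCm38.p6), 251 bases outside the annotated exons.
Dnmt3b: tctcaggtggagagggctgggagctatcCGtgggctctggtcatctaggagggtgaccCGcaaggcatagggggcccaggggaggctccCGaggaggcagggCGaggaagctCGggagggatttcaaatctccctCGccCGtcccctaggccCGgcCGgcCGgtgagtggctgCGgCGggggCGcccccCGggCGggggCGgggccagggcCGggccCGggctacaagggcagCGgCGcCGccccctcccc
The full 300-base window around this start held 30 CpG sites, a number reached by 11.68% of 32851 RefSeq promoter windows, whose median was 7.

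Dnmt3a, the other de novo enzyme (chromosome 12, 3806007 to 3914443), had another order. It stood at 86.4 and 66.0 CPM in CD150+CD48+ cells, 57.4 CPM in HSC (interval 52.2 to 63.1), 61.1 and 41.4 CPM in pMT-10 CMPs and 45.2 and 41.5 CPM in BL/6 CMPs. Both CD150+CD48+ libraries were above every other library, a place whose share over all tested genes was not computed. The CMP groups overlapped. CD150+CD48+ cells exceeded BL/6 CMPs by 0.81 ± 0.24 on the log2 scale (adjusted p = 0.0495). This call sat at the threshold and was lost without any single library of either group (adjusted p = 0.109 to 0.327 without CD150+CD48+ replicate 1 or 2 or BL/6 replicate 1 or 2). Against pMT-10 CMPs the difference was 0.57 ± 0.24 (adjusted p = 0.147), and 0.88 if replicate 1 of the pMT-10 CMPs was omitted. The ratio of Dnmt3b to Dnmt3a counts within a library was 1.79 in HSC, 0.617 and 1.08 in CD150+CD48+ cells, 0.819 and 1.37 in pMT-10 CMPs and 0.924 and 0.860 in BL/6 CMPs. The ratio was highest in the HSC library and did not separate the other groups.

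Dnmt1, the maintenance methyltransferase (chromosome 9, 20907209 to 20959888), was lowest in the CMPs of pMT-10 mice. It was at 370 and 228 CPM there, at 462 and 439 CPM in BL/6 CMPs, at 448 CPM in HSC (interval 433 to 463) and at 608 and 495 CPM in CD150+CD48+ cells. The pMT-10 CMP libraries lay below all others, and the CD150+CD48+ libraries above all others. The shares of all tested genes with these orders were not computed. CD150+CD48+ cells exceeded pMT-10 CMPs on the same chip by 0.88 ± 0.24 on the log2 scale (adjusted p = 0.0448), a 1.84-fold difference. The call was lost without CD150+CD48+ replicate 1 (0.73, adjusted p = 0.266) or replicate 2 (1.02, 0.152), without BL/6 replicate 1 (adjusted p = 0.0951) or replicate 2 (0.0926), and in a fit of these 4 libraries alone (0.0998). In pMT-10 against BL/6 CMPs Dnmt1 was at -0.59 ± 0.24 (95% interval -1.13 to -0.05, adjusted p = 0.0929). The value was -0.98 when replicate 1 of the pMT-10 CMPs, the higher of that pair, was left out. HSC and BL/6 CMPs, on the same chip, were at nearly the same level (-0.01, interval -0.66 to 0.65).

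Uhrf1, the partner that recognises hemimethylated DNA (chromosome 17, 56303321 to 56323486), did not follow Dnmt1. Its values were 386 and 485 CPM in pMT-10 CMPs, 380 and 410 CPM in BL/6 CMPs, 484 and 425 CPM in CD150+CD48+ cells and 300 CPM in HSC (interval 288 to 312). Only the HSC library stood apart, as the lowest of all 7, a place that 21.3% of all tested genes shared. Uhrf1 was called in 0 of 6 comparisons, with 2 at an unadjusted p under 0.05, both of HSC: -0.60 ± 0.23 against CD150+CD48+ cells (adjusted p = 0.101) and -0.54 ± 0.23 against pMT-10 CMPs (adjusted p = 0.115). The Dnmt1 to Uhrf1 count ratio within a library was 0.958 and 0.470 in pMT-10 CMPs, 1.22 and 1.07 in BL/6 CMPs, 1.26 and 1.16 in CD150+CD48+ cells and 1.49 in HSC. The lowest ratios were those of pMT-10 CMPs.

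Proliferation genes gave mixed values beside Dnmt1, Uhrf1 and Ezh2, genes known to be active in dividing cells. The summed level of 28 measured proliferation genes was 8050 and 7720 CPM in pMT-10 CMPs, 7040 and 7610 CPM in BL/6 CMPs, 8450 and 7840 CPM in CD150+CD48+ cells and 6460 CPM in HSC, the lowest. In pMT-10 against BL/6 CMPs 7 of them were called higher and 3 lower, where 14.3% and 13.7% of all tested genes were. Tyms, which makes thymidylate, was at 36.6 and 26.4 CPM in pMT-10 CMPs against 155 and 162 CPM in BL/6 CMPs, while Mcm5, a subunit of the replicative helicase, was at 365 and 503 CPM against 235 and 274 CPM. Mki67, a marker of cycling cells, was at 67.4 CPM in HSC against 108 and 173 CPM in CD150+CD48+ cells (-1.06 ± 0.32, adjusted p = 0.0486). The part of proliferation in the levels of these regulators was not tested.

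Promoter windows of the 10 regulators (250 bases before to 50 after each RefSeq start, GRCm38.p6) were searched on both strands for the E2F core motifs TTCGCGC and TTGGCGC, since E2F factors drive S-phase genes. At least 1 match was found in 3.89% of all 32851 windows. Of the regulators, Ezh2 (1 match), Uhrf1 (1 match in the second of its 2 windows) and Dnmt1 (3 matches in the third of its 3 windows) had any. The third Dnmt1 window lies downstream of the other starts, inside the gene. The share of 3.89% is per window and not per gene, and it is not matched for CpG content. Both motifs contain CpG. The matching windows of Ezh2, Uhrf1 and Dnmt1 held 31, 33 and 33 CpG sites, against a median of 7 over all windows. A match is a description of the letters and not a binding site. Shown are the first match in each of these 3 genes with 10 bases on either side, the match in capitals and the sequence in the direction of the gene (chr9:20952826-20952852 minus, chr17:56304119-56304145 plus and chr6:47595010-47595036 minus).
Dnmt1: gtttccgcgcGCGCGAAaaagccgggg
Uhrf1: cgagtcgggtTTCGCGCgcccaggcgt
Ezh2: gttgctgcgtTTGGCGCtcggtccggt
These 3 genes did not share an order of levels: the highest group was CD150+CD48+ cells for Dnmt1 and Uhrf1 and pMT-10 CMPs for Ezh2, and the lowest was pMT-10 CMPs for Dnmt1, HSC for Uhrf1 and BL/6 CMPs for Ezh2.

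**Figure D2:**
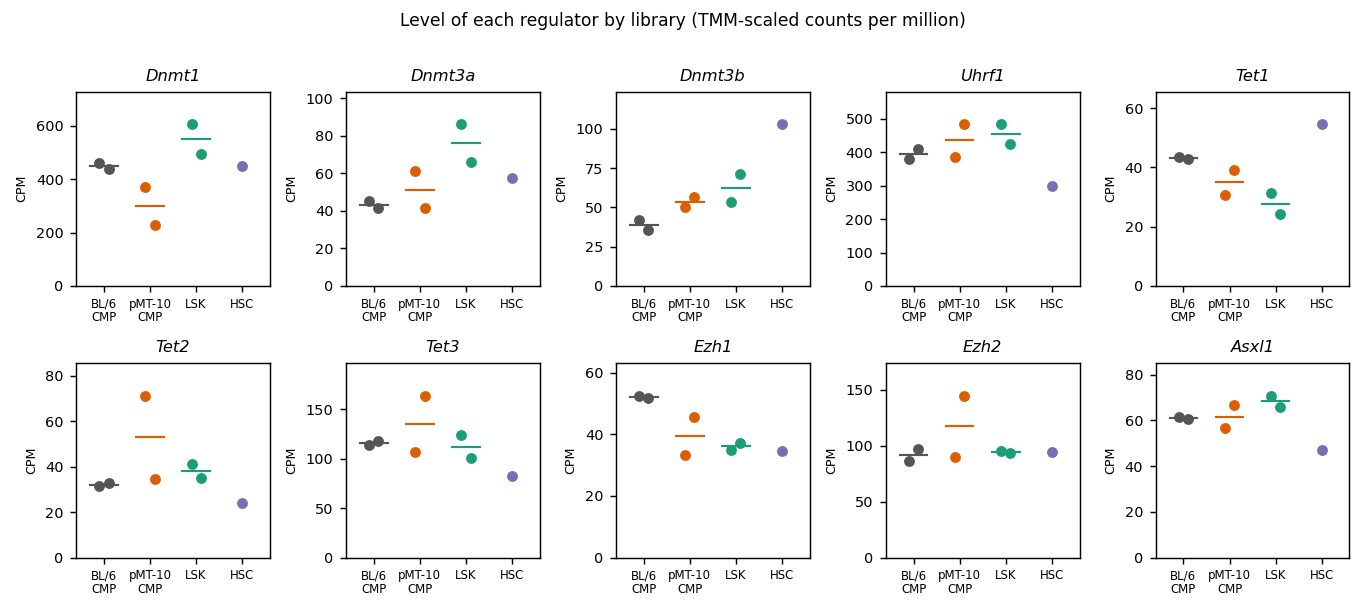
Level of each regulator in each library, as TMM-scaled CPM on a linear axis from 0, by group (BL/6 CMP, pMT-10 CMP, CD150+CD48+ cells written LSK, and HSC). Points are libraries and bars are means of the 2 libraries of a group. The single HSC point is highest for Dnmt3b and Tet1, and the pMT-10 CMP points lie widely apart for Tet2, Dnmt1 and Ezh2.

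Among the dioxygenases, Tet1 (chromosome 10, 62804570 to 62908996) was highest in the stem cell library. It was at 54.7 CPM in HSC (413 counts, interval 49.5 to 60.2), 43.6 and 42.7 CPM in BL/6 CMPs, 30.8 and 39.2 CPM in pMT-10 CMPs and 31.3 and 24.1 CPM in CD150+CD48+ cells. Both libraries of the 2019 chip's BL/6 group and the HSC library of that chip were above all 4 libraries of the 2018 chip. Tet1 was higher in HSC than in CD150+CD48+ cells by 0.98 ± 0.27 on the log2 scale (1.98-fold, adjusted p = 0.0356), a comparison that runs across the chips, so that chip and cell population cannot be told apart. Within the 2019 chip, HSC and BL/6 CMPs differed by 0.34 ± 0.27 (interval -0.27 to 0.96, adjusted p = 0.408). The call was lost without CD150+CD48+ replicate 1 (1.18, adjusted p = 0.102) or replicate 2 (0.80, 0.169) and without BL/6 replicate 1 (0.102) or replicate 2 (0.110).

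Tet2, the family member most often mutated in myeloid disease (chromosome 3, 133463679 to 133545139), was at 71.2 and 34.5 CPM in pMT-10 CMPs. It was at 40.9 and 34.8 CPM in CD150+CD48+ cells, 31.3 and 32.7 CPM in BL/6 CMPs and 23.8 CPM in HSC (180 counts, interval 20.5 to 27.6). A single pMT-10 CMP library was high, and the other lay just under the CD150+CD48+ libraries. Tet2 passed no comparison in the reported fit. It was at 0.72 ± 0.31 between pMT-10 and BL/6 CMPs (adjusted p = 0.112) and at -1.15 ± 0.41 between HSC and pMT-10 CMPs (adjusted p = 0.0672). With no filter on low counts edgeR called both differences, and DESeq2 called the one between HSC and pMT-10 CMPs. Without pMT-10 CMP replicate 2 these differences were 1.15 and -1.58. Without replicate 1 the sign against CD150+CD48+ cells turned, from -0.48 to 0.13. The HSC level was the lowest of the 7, and the intervals of its differences from CD150+CD48+ cells (-1.57 to 0.24) and BL/6 CMPs (-1.32 to 0.47) spanned 0.

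Tet3, the remaining dioxygenase (chromosome 6, 83362373 to 83459084), varied by 1.99-fold over the libraries. Its values were 107 and 164 CPM in pMT-10 CMPs, 114 and 118 CPM in BL/6 CMPs, 124 and 101 CPM in CD150+CD48+ cells and 82.3 CPM in HSC (interval 76.0 to 89.1). The CMP and CD150+CD48+ groups overlapped and the HSC library was lowest. Tet3 was called nowhere in the reported fit, with its largest difference between HSC and pMT-10 CMPs (-0.72 ± 0.29, adjusted p = 0.0976). With no filter on low counts edgeR called that difference. That difference was -0.99 once replicate 1 of the pMT-10 CMPs was removed. The ratio of Tet1 to Tet3 counts was 0.664 in HSC, 0.382 and 0.362 in BL/6 CMPs, 0.287 and 0.239 in pMT-10 CMPs and 0.253 and 0.239 in CD150+CD48+ cells. The HSC library was highest in that ratio, and BL/6 CMPs came next.

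The PRC2 methyltransferases gave no call. Ezh2 (chromosome 6, 47530139 to 47595341) had 89.6 and 145 CPM in pMT-10 CMPs, 86.1 and 96.7 CPM in BL/6 CMPs, 95.3 and 93.4 CPM in CD150+CD48+ cells and 94.4 CPM in HSC (interval 87.6 to 102). All libraries but pMT-10 CMP replicate 2 lay between 86.1 and 96.7 CPM. Between HSC and CD150+CD48+ cells the log2 difference was 0.00 with an interval of -0.65 to 0.65. Between pMT-10 and BL/6 CMPs it was 0.36 ± 0.24 (adjusted p = 0.278), at -0.03 without pMT-10 CMP replicate 2 and at 0.67 without replicate 1.

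Ezh1, the paralogue associated with resting cells (chromosome 11, 101191115 to 101226463), was at 52.5 and 51.6 CPM in BL/6 CMPs. It had 33.1 and 45.7 CPM in pMT-10 CMPs, 34.8 and 37.3 CPM in CD150+CD48+ cells and 34.5 CPM in HSC (interval 30.5 to 39.0). Both BL/6 libraries were above all 5 pMT-10 libraries, an order that 15.5% of all tested genes showed. The differences did not pass: -0.40 ± 0.22 between the CMPs (adjusted p = 0.195), -0.59 ± 0.28 between HSC and BL/6 CMPs within the 2019 chip (adjusted p = 0.160) and -0.53 ± 0.22 between CD150+CD48+ cells and BL/6 CMPs (adjusted p = 0.127). Leaving out replicate 2 of the pMT-10 CMPs gave -0.65 between the CMPs. The Ezh1 to Ezh2 count ratio was 0.611 and 0.534 in BL/6 CMPs, and 0.369 and 0.315 in pMT-10 CMPs. In CD150+CD48+ cells it was 0.366 and 0.399 and in HSC 0.366. Thus the ratio in the stem cell library lay within the range of the other pMT-10 libraries.

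Asxl1 (chromosome 2, 153345829 to 153404007) was the steadiest of the 10. It had 56.6 and 66.6 CPM in pMT-10 CMPs, 61.4 and 60.4 CPM in BL/6 CMPs, 70.8 and 65.7 CPM in CD150+CD48+ cells and 47.1 CPM in HSC (356 counts, interval 42.4 to 52.3). The CMP groups overlapped, with a difference of 0.02 and an interval of -0.41 to 0.44. The HSC library was lowest, at -0.53 ± 0.24 against CD150+CD48+ cells (adjusted p = 0.143).

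In the order of the 4 group means, no regulator had neighbours that differed by the test. Of 30 neighbouring pairs, 0 were called (edgeR), and in 16 the libraries overlapped. Neighbours in such an order are the closest groups of a gene, so few calls were likely beforehand. The share over all tested genes was not computed. Dnmt3b (HSC, CD150+CD48+ cells, pMT-10 CMPs, BL/6 CMPs from high to low) and Tet1 (HSC, BL/6 CMPs, pMT-10 CMPs, CD150+CD48+ cells) had the HSC library on top. Uhrf1, Tet2, Tet3 and Asxl1 had it at the bottom of all 7 libraries. Of all tested genes, 25.0% had the HSC library above the other 6 and 21.3% had it below them.

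The spread between replicates bounded these comparisons. The log2 difference of replicate 2 from replicate 1 in pMT-10 CMPs was -1.04 for Tet2, -0.70 for Dnmt1, -0.56 for Dnmt3a, 0.61 for Tet3 and 0.69 for Ezh2. The median size of this difference over the 10 regulators was 0.51 in pMT-10 CMPs, 0.26 in CD150+CD48+ cells and 0.07 in BL/6 CMPs, beside 0.42, 0.24 and 0.16 over all tested genes. With 1 library left out, the log2 difference between the CMPs ran from -0.114 to 0.499 for Tet3 and from -0.0283 to 0.665 for Ezh2. A lone library is then assumed to vary like the other groups. Over all tested genes, more were called between the CMPs without either pMT-10 CMP library than with both.

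Over the 7 libraries the regulators did not move as a block. Pearson's r of log2 CPM, given as a description since the libraries fall into 4 groups and share chips, was 0.95 between Uhrf1 and Asxl1, 0.84 between Uhrf1 and Tet3 and 0.65 between Dnmt1 and Dnmt3a. It was -0.81 between Dnmt1 and Ezh2, -0.81 between Dnmt3a and Ezh1 and -0.18 between Dnmt1 and Uhrf1. Among 6817 other genes at a mean of 20 CPM or more, the pattern most like that of Dnmt3b was Aig1 (r = 0.989) and that of Tet1 was Camk2g (r = 0.997), followed by Dtx3 (0.983) and Cdca7 (0.981). For Tet2 it was Brca1 (r = 0.989), for Ezh2 Gfod2 (0.971) and for Ezh1 Etf1 (0.996).

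Partner genes of the same pathways included several that passed the test. They were taken from 4 lists: DNA methylation partners and readers, PRC2, PRC1, and genes of H3K27 demethylation and H2A deubiquitination. Of 62 measured partner genes, 59 were tested. In pMT-10 against BL/6 CMPs 8 were called higher and 9 lower, where 14.3% and 13.7% of all tested genes were. In CD150+CD48+ cells against pMT-10 CMPs 2 were higher and 0 lower (5.92% of all tested genes each way). HSC had 4 higher and 6 lower against CD150+CD48+ cells (10.6% and 8.15% of all tested genes) and 9 higher and 4 lower against pMT-10 CMPs (13.8% and 11.7%). Against BL/6 CMPs, 7 were higher and 5 lower in HSC (11.8% and 8.50%), and 5 higher and 5 lower in CD150+CD48+ cells (8.11% and 8.50%). Most of these shares were near the background, and the genes below are described one by one.

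Of 9 tested partners in PRC2, 3 were called lower and 1 higher in pMT-10 than in BL/6 CMPs, and the other 5 were not called. Suz12, the scaffold subunit that Ezh2 needs for activity, had 72.9 and 33.5 CPM in pMT-10 CMPs, 156 and 130 CPM in BL/6 CMPs, 94.0 and 132 CPM in CD150+CD48+ cells and 93.8 CPM in HSC. Both pMT-10 CMP libraries were below all others, an order whose share over all tested genes was not computed. The difference between the CMPs was -1.43 ± 0.34 on the log2 scale (adjusted p = 0.0145). The accessory subunits Aebp2 (-1.06 ± 0.31, adjusted p = 0.0323) and Phf19 (-0.97 ± 0.31, adjusted p = 0.0452) were also lower and Phf1 was higher (1.15 ± 0.34, adjusted p = 0.0330). Phf19, a PRC2 recruiter, was at 44.5 CPM in HSC against 18.2 and 9.39 CPM in pMT-10 CMPs (1.69 ± 0.36, adjusted p = 0.0112). The histone-binding subunit Rbbp4 was at 321 CPM in HSC against 521 and 567 CPM in CD150+CD48+ cells (-0.76 ± 0.21, adjusted p = 0.0362). Its relative Rbbp7 was lower in CD150+CD48+ cells than in BL/6 CMPs (-1.64 ± 0.46, adjusted p = 0.0418).

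Several PRC1 genes differed as well. Pcgf6, the ring-finger subunit of a variant PRC1, had 23.2 and 27.6 CPM in pMT-10 CMPs, against 56.7 and 58.5 CPM in BL/6 CMPs (-1.18 ± 0.21, adjusted p = 0.00523). CD150+CD48+ libraries were at 19.1 and 22.7 CPM and HSC at 42.6 CPM, so all 5 pMT-10 libraries were below both BL/6 libraries. Between the CMPs Pcgf5 was also lower (-1.06 ± 0.26, adjusted p = 0.0179), and Cbx7, a chromodomain reader of H3K27 methylation (1.09 ± 0.25, adjusted p = 0.0125), and Pcgf3 (0.80 ± 0.20, adjusted p = 0.0191) were higher. The HSC library was lowest for Kdm2b, which brings variant PRC1 to unmethylated CpG islands: 3.71 CPM against 17.1 and 18.8 CPM in CD150+CD48+ cells, 10.7 and 9.39 CPM in pMT-10 CMPs and 15.0 and 14.5 CPM in BL/6 CMPs. This gene was called lower in HSC against each group, by -2.27 ± 0.37, -1.44 ± 0.37 and -1.99 ± 0.37. L3mbtl2, a further variant PRC1 subunit, had the same order, with 28.5 CPM in HSC and 67.8 to 84.3 CPM in the other 6 libraries, and log2 differences of -1.49 ± 0.25, -1.30 ± 0.24 and -1.42 ± 0.25. Other PRC1 genes were called higher in HSC. Against CD150+CD48+ cells these were Pcgf6 (1.03 ± 0.25) and Pcgf1 (1.13 ± 0.28). Phc1 (0.99 ± 0.29) and Scmh1 (0.76 ± 0.22) were higher than in pMT-10 CMPs, and Cbx7 (0.98 ± 0.30) and Pcgf2 (1.51 ± 0.44) than in BL/6 CMPs. Pcgf2 was at 69.8 CPM in HSC and at 59.9 and 51.2 CPM in CD150+CD48+ cells, above all 4 CMP libraries (11.0 to 29.1 CPM). It was called higher in CD150+CD48+ cells (1.46 ± 0.38, adjusted p = 0.0390) and HSC (1.79 ± 0.44, adjusted p = 0.0191) than in pMT-10 CMPs.

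**Figure D3:**
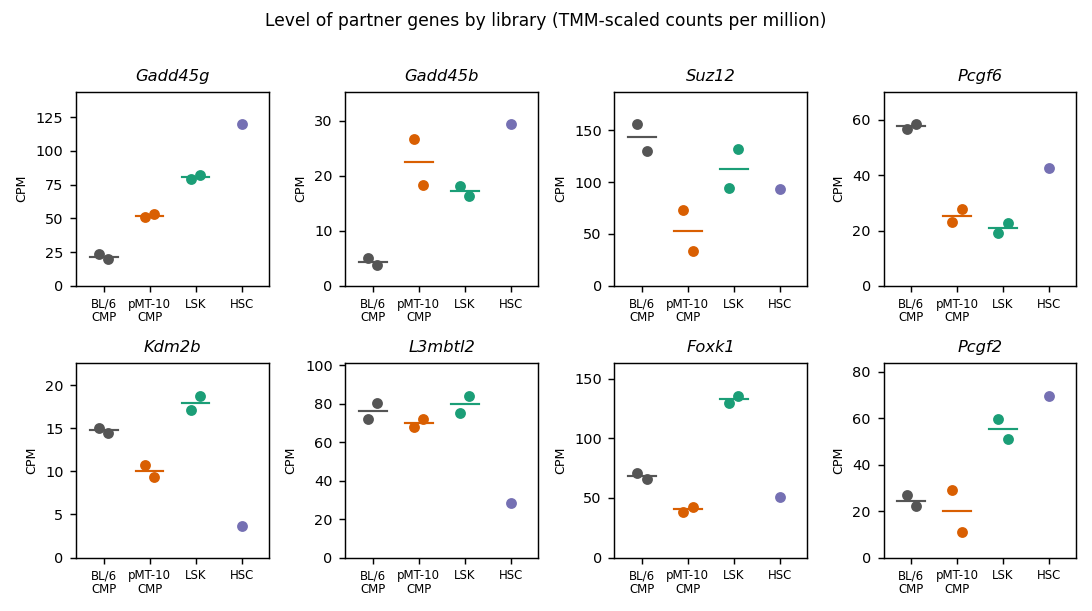
Level of 8 partner genes in each library, as TMM-scaled CPM on a linear axis from 0, by group (LSK stands for CD150+CD48+ cells). Points are libraries and bars are means of the 2 libraries of a group. Gadd45g and Gadd45b are lowest in both BL/6 libraries, and Kdm2b and L3mbtl2 are lowest in the HSC library.

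Among DNA methylation partners were the stress-induced Gadd45 genes, which have been linked to active demethylation. Gadd45g and Gadd45b were higher in every pMT-10 library than in the BL/6 libraries, and Gadd45a was not. Gadd45g was at 23.7 and 19.8 CPM in BL/6 CMPs, 51.1 and 53.1 CPM in pMT-10 CMPs, 79.0 and 82.5 CPM in CD150+CD48+ cells and 120 CPM in HSC. The 4 groups did not overlap, and it was called higher in pMT-10 CMPs (1.26 ± 0.19, adjusted p = 0.00307), CD150+CD48+ cells (1.89 ± 0.20, adjusted p = 0.00063) and HSC (2.47 ± 0.22, adjusted p = 0.000159) than in BL/6 CMPs. Gadd45b was at 5.08 and 3.72 CPM in BL/6 CMPs and at 16.3 to 29.4 CPM in the 5 pMT-10 libraries (2.35 ± 0.31 between the CMPs, adjusted p = 0.00191). The mean Gadd45a level of the BL/6 CMPs was 156 ± 7.02 CPM and that of the pMT-10 CMPs 119 ± 48.7 CPM (SD over 2 libraries each), with overlapping libraries (-0.38 ± 0.30, adjusted p = 0.358 by edgeR). It was called lower in HSC, at 57.8 CPM, than in BL/6 CMPs (-1.43 ± 0.39, adjusted p = 0.0329). HSC and BL/6 CMPs share a chip but differ in both strain and cell population, which cannot be told apart.

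Against CD150+CD48+ cells the HSC library was higher for Cxxc5, a reader of unmethylated CpG (0.91 ± 0.23, adjusted p = 0.0246), and lower for Zbtb33, a reader of methylated DNA (-1.09 ± 0.32, adjusted p = 0.0423). Mbd2, another reader, was lower in HSC than in pMT-10 CMPs (-0.65 ± 0.21, adjusted p = 0.0454) and BL/6 CMPs (-0.95 ± 0.21, adjusted p = 0.0129).

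In the list of H3K27 demethylation and H2A deubiquitination, Foxk1, a DNA-binding partner of Bap1, was at 130 and 136 CPM in CD150+CD48+ cells. It was at 38.3 and 42.8 CPM in pMT-10 CMPs on the same chip, 71.3 and 66.0 CPM in BL/6 CMPs and 51.1 CPM in HSC. Its log2 differences were 1.71 ± 0.18 for CD150+CD48+ cells against pMT-10 CMPs (adjusted p = 0.00125) and -0.76 ± 0.18 for pMT-10 against BL/6 CMPs (adjusted p = 0.0152). Mbd6, which binds the Bap1 complex, was higher in pMT-10 CMPs (1.32 ± 0.30, adjusted p = 0.0125), and Hcfc1, a further Bap1 partner, was lower in HSC than in CD150+CD48+ cells (-1.24 ± 0.30, adjusted p = 0.0220). Uty, the Y-linked relative of the demethylase gene Kdm6a, had 0 and 1 counts in the BL/6 libraries and 47 to 552 counts in the pMT-10 libraries. The sex of the mice is not in the labels. In every comparison with BL/6 CMPs, sex and strain therefore cannot be told apart, for this gene or any other. Among the pMT-10 libraries Uty was at 5.19 and 18.0 CPM in CMPs, 21.0 and 39.7 CPM in CD150+CD48+ cells and 48.6 CPM in HSC. Whether the sex of the mice differed between these libraries was not tested. No fold is given for Uty.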

How the data were processed

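Sorted cells were profiled with the Ion AmpliSeq Transcriptome mouse kit, per the labels' protocols. The authors deposited counts of reads for each amplicon, not normalized, in a table for each chip. The submitters' processing notes name mm10. Aligner and counter: not given in the sources used here. Where an amplicon lies within its gene was not used here. Reads without molecular identifiers are not independent, so the Poisson intervals of HSC levels may be too narrow even for counting error. The intervals of log2 differences come from the edgeR fit.

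The analysis used edgeR 4.0.16 (R 4.3.3): filterByExpr (minimum count 10), TMM, 1 fit of all 7 libraries with 4 group means (3 residual degrees of freedom), robust quasi-likelihood F-tests and Benjamini-Hochberg adjustment over 11429 genes. A gene is called under an adjusted p of 0.05, and adjusted p-values are from this test unless another is named. CPM uses TMM-scaled totals. DESeq2 1.42.0 and limma 3.58.1 (voom) served as alternatives, with other filters, scalings and left-out libraries. The script was tested on simulated counts.

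Members, lists and tests were chosen with earlier results of these data known. Named partners are up to 4 called per list and comparison with the smallest p, and a few genes picked this way or by likeness are left out of the text. The printed sequences and the comparison of CD150+CD48+ cells with BL/6 CMPs were chosen after seeing the data. Gene positions come from GENCODE M21. Of 67 partners, 5 (Pcna, Epop, Rybp, Cbx2 and Cbx6) were not analysed here.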

Additional observations from a re-analysis of the deposited data

How the results depend on the processing

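The 5 calls of single regulators kept their direction in all 14 alternatives each, and were lost in 1 (Dnmt3b, HSC against BL/6 CMPs) to 5 of them (Dnmt1 and Tet1). Over all regulators and comparisons, 740 of 840 alternative values kept their direction and side of the threshold, 54 became called, 18 lost the call and 28 changed sign, none of them called. The cause was not tested. With RLE factors, total counts and limma-voom the number of regulators called was as reported in every comparison. Without a filter it was 2 for pMT-10 against BL/6 CMPs, 3 for HSC against pMT-10 CMPs and 2 for CD150+CD48+ cells against BL/6 CMPs. With DESeq2 it was 2 in the last-named comparison and 2 for HSC against pMT-10 CMPs, and with a minimum count of 50 it was 2 in CD150+CD48+ cells against BL/6 CMPs. Fitting only the groups compared gave 0 for CD150+CD48+ cells against pMT-10 CMPs, 4 for HSC against CD150+CD48+ cells, 0 for HSC against pMT-10 CMPs, 6 for HSC against BL/6 CMPs and 4 for CD150+CD48+ cells against BL/6 CMPs.

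Leaving out 1 replicate gave 0 to 4 regulators in pMT-10 against BL/6 CMPs, 0 to 4 in CD150+CD48+ cells against pMT-10 CMPs, 0 to 5 in HSC against CD150+CD48+ cells, 0 to 5 in HSC against pMT-10 CMPs, 0 to 3 in HSC against BL/6 CMPs and 0 to 4 in CD150+CD48+ cells against BL/6 CMPs. The highest values came without a pMT-10 CMP library, the pair with the widest spread. In those fits more of all tested genes were called too, in every comparison, so these counts are not particular to the regulators. The same holds for the fits of only the groups compared. Where the number of regulators called rose there, so did that of all tested genes, and where it fell, both fell.

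The replicate block left 0 regulators called in HSC against CD150+CD48+ cells (Tet1, adjusted p = 0.0634) and 2 in HSC against pMT-10 CMPs, and changed no other count. The numbers are not shown to pair the samples: deviations of same-numbered libraries correlated at -0.0195, -0.0192 and -0.0764 across genes. Under the block, Ezh1 in HSC against CD150+CD48+ cells turned to 0.0275.

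Other uncalled log2 values changed sign as follows. Dnmt1 in HSC against BL/6 CMPs was 0.00553 with RLE factors and DESeq2 and 0.0516 with total counts. Ezh2 in HSC against CD150+CD48+ cells was -0.0276 without a filter, -0.02 with a minimum count of 50, -0.0438 in the groups compared and -0.07 to 0.0144 with 1 replicate left out. With 1 replicate left out, the ranges in pMT-10 against BL/6 CMPs were -0.0677 to 0.496 for Dnmt3a, -0.0304 to 0.297 for Uhrf1, -0.114 to 0.499 for Tet3, -0.0283 to 0.665 for Ezh2 and -0.105 to 0.13 for Asxl1. In CD150+CD48+ cells against pMT-10 CMPs they were -0.000912 to 0.418 for Dnmt3b, -0.0955 to 0.231 for Uhrf1, -0.915 to 0.128 for Tet2, -0.549 to 0.0631 for Tet3, -0.339 to 0.124 for Ezh1 and -0.62 to 0.0729 for Ezh2. In HSC against pMT-10 CMPs they were -0.0903 to 0.473 for Dnmt3a, -0.402 to 0.0609 for Ezh1 and -0.618 to 0.0743 for Ezh2. Ezh2 ran from -0.083 to 0.0827 in HSC against BL/6 CMPs and from -0.0349 to 0.153 in CD150+CD48+ cells against BL/6 CMPs, and Tet3 from -0.205 to 0.095 in the latter.

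The lowest count of any regulator was 180 (Tet2 in HSC), with a counting interval of 20.5 to 27.6 CPM. Over all tested genes the number called depended strongly on the libraries: between pMT-10 and BL/6 CMPs it was 3204 as reported, 582 and 764 without the 1st or 2nd BL/6 library, and 5268 without the 1st pMT-10 CMP library. In CD150+CD48+ cells against pMT-10 CMPs 1354 fell to 44 and 96 without the 1st or 2nd CD150+CD48+ library, and in HSC against BL/6 CMPs 2320 became 6127 when only those groups were fitted.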
